A study of Manihot esculenta with 9 samples.

Results

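The genes described here are those of cassava (Manihot esculenta) that the annotation ties to terpenoid and isoprenoid synthesis. They were chosen by the wording of their description in the deposited table: any gene whose description held a word such as terpene, terpenoid, squalene, geranyl, farnesyl, mevalonate, deoxyxylulose or cycloartenol was a member. The rule used no measured value and found 98 of 33033 genes. Of these, 62 had enough reads to be tested, 36 fell below the filter on low counts, and 15 of those 36 had no read in any library. Most members fit the label, with exceptions that the words also catch. There were 6 genes tied to protein prenylation, the attachment of isoprenoid tails to proteins. They include transferase subunits, but also a farnesylated protein, a farnesylcysteine lyase and an enzyme that converts farnesylated proteins. The words caught 3 others: a pair of galactokinase family genes and a gene matched to AT1G62730 that is described only as a terpenoid synthase family protein.

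Leaf RNA was sequenced from HOE8 and HOE1, a pair of transgenic lines made to overexpress the linker histone MeH1.2, and from wild type (WT), with 3 libraries per group. Linker histones sit on the DNA between nucleosomes and help to compact chromatin. Per the labels' protocols, the plants of all 3 groups were grown from stem cuttings on MS medium in sterile bottles for 2 months and received no treatment. Each transgenic group was a single line, the promoter of the transgene is not given in the sources used here, and nothing says that the libraries came from separate plants, so p-values measure only the spread between these libraries.

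Isoprenoids are built from a pair of small precursors, isopentenyl diphosphate and dimethylallyl diphosphate. Plants make them by the mevalonate pathway, outside the plastid, and by the methylerythritol phosphate (MEP) pathway, inside it. Prenyl diphosphate synthases join the precursors into longer chains. From these chains come sterols and triterpenes by way of squalene, gibberellins by way of ent-kaurene, carotenoids and the tails of chlorophyll and tocopherol in the plastid, and the volatile monoterpenes and sesquiterpenes that terpene synthases release. Cassava also makes latex, whose rubber is a long isoprenoid chain. Roles given below are those of the best match in Arabidopsis and were not tested in cassava.

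The libraries held between 13272047 and 16378389 reads assigned to genes. Levels are given per library as CPM, the read count relative to library size after TMM scaling, on which 3 reads correspond to 0.176 to 0.233. Fold changes are log2 values from edgeR's quasi-likelihood test, and p-values were adjusted by the method of Benjamini and Hochberg across the 23434 genes that passed the filter on low counts. HOE8 library 1 stood apart from its group: the median chi-square per gene was 1.82 and 2.02 against HOE8 libraries 2 and 3 and 0.767 between those libraries, where sampling noise alone gives 0.455. Leaving it out ended 2 calls among 71 named genes, those of Manes.13G101600 in HOE8 against WT and of Manes.02G035200 in HOE8 against HOE1. Both calls were also lost with DESeq2 (adjusted p = 0.076 and 0.057) and with some other libraries left out. Leaving out HOE8 library 1 added 4 calls. The linker histone gene Manes.08G136300, whose count holds native and transgene reads together, had 3236, 3643 and 3157 CPM in HOE8, 4567, 4538 and 4746 in HOE1, and 154, 152 and 140 in WT. Clock genes differed widely between HOE8 and the other groups. The LHY match Manes.01G239000 had 1068, 1332 and 1357 CPM in HOE8, 8.33, 8.79 and 8.73 in HOE1, and 5.9, 4.98 and 5.11 in WT. The GIGANTEA match Manes.18G095000 had 0.908, 0.853 and 1.39 CPM in HOE8, 472, 462 and 464 in HOE1, and 488, 479 and 475 in WT. The labels give no time of collection, so a difference in time of day between HOE8 and the other groups and the effect of the line cannot be told apart. The part of the clock in the values below was not tested.

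Leaf mesophyll markers, 31 genes for Rubisco and light harvesting, summed to 35509 to 40067 CPM in HOE8, 11799 to 12109 in HOE1 and 4586 to 4988 in WT. Epidermis and cuticle markers, 11 genes, summed to 399 to 493 CPM in HOE8, 322 to 343 in HOE1 and 3886 to 4188 in WT. Xylem markers, 32 genes, of which 4 were at 0 throughout, summed to 63.5 to 73.5 CPM in HOE8, 59.9 to 63 in HOE1 and 302.1 to 317.4 in WT. That sum does not describe each xylem gene, since 11 of 18 tested were higher and 5 lower in HOE8 than in WT, and 1 was higher and 13 lower in HOE1. Root markers, 18 genes with 7 at 0 throughout, summed to 109 to 110 CPM in HOE8, 138 to 142 in HOE1 and 288 to 298 in WT, and of 5 tested, 2 were higher and 1 lower than in WT in each line. Mesophyll markers thus had reads in all 3 groups, and the summed levels of the tissue markers differed between the groups. No other tissue was compared, so these values do not test the leaf label. In leaf RNA, fewer cells of a type and less RNA per cell cannot be told apart, and the part of tissue makeup in the values below was not tested.

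Across the members, gene changes ran both ways in both lines and had no common direction. In HOE8, 23 members were higher and 27 lower than in WT, with a median log2 fold change of 0.02 over the 62 tested. Of all genes tested, 33.7% were higher and 38.2% lower in that comparison, with a median of -0.05. In HOE1, 23 members were higher and 25 lower than in WT (median -0.05), where 31.7% of all genes were higher and 32.7% lower (median -0.00). HOE8 against HOE1 gave 23 higher and 26 lower members (median -0.06), with 32.7% and 33.8% of all genes (median -0.01). Both comparisons with WT share its 3 libraries. The counts by class and by pathway below stand against these same shares of all genes.

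Changes of at least 2-fold were counted under a rule chosen after seeing the data. A gene can pass the filter on low counts through the group where it is high. These counts and those at any fold therefore describe the tested members and support nothing. HOE8 held 12 members at least 2-fold higher and 20 at least 2-fold lower than WT, where 15.3% and 16.6% of all genes tested met the same rule. Terpene synthases made up 6 of the 12 and 3 of the 20, and diterpene synthases of gibberellin synthesis another 6 of the 20. HOE1 held 10 of each against WT, where 8.5% of all genes were that much higher and 10.8% that much lower. HOE8 against HOE1 gave 15 higher and 13 lower members, with 13% and 12.7% of all genes. Without HOE8 library 1, the counts at any fold became 24 and 26 against WT and 24 and 25 against HOE1, and those at 2-fold 13 and 21 against WT and 14 and 12 against HOE1.

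**Figure D1:**
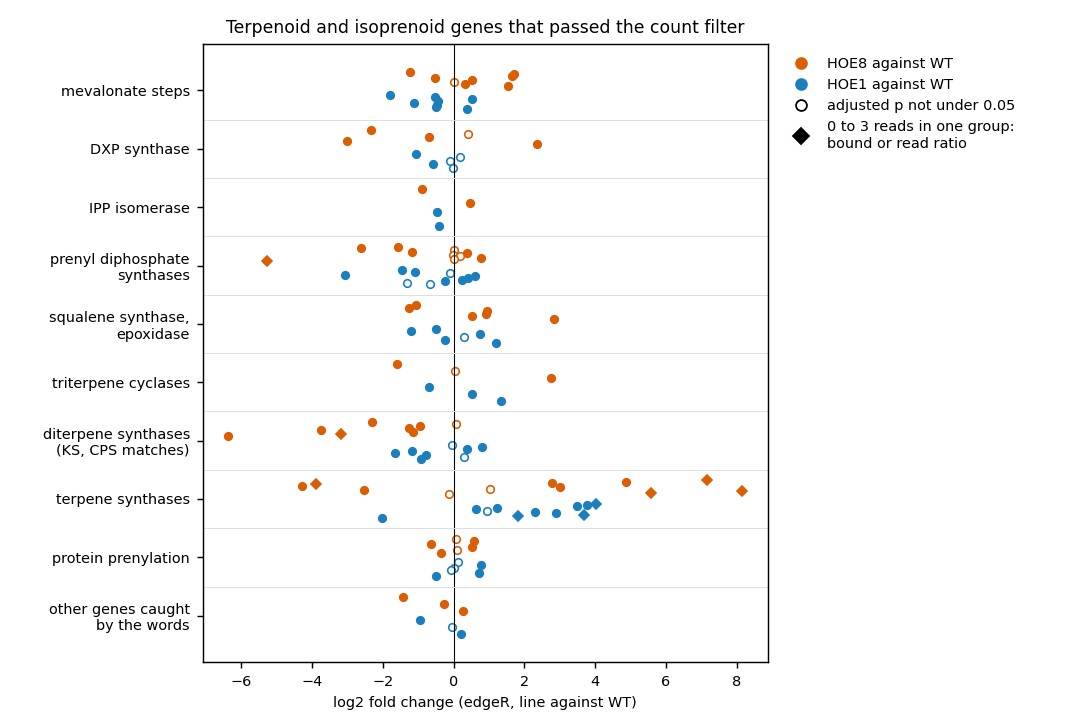
Log2 fold change (x axis) of the 62 tested members in HOE8 and in HOE1 against WT, in rows by role; filled points passed an adjusted p of 0.05, and diamonds are lower bounds or read ratios for genes with 0 to 3 reads in a group. Mevalonate steps lie mostly right of 0 in HOE8 and left of it in HOE1, 7 of the 8 diterpene synthases lie left in HOE8, and the terpene synthases spread from -4.29 in HOE8 to read ratios over 100-fold.

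The mevalonate pathway begins with the condensing enzyme HMG-CoA synthase and passes through HMG-CoA reductase, the best known control point of the route, to mevalonate kinase. In HOE8, 5 of the 8 tested genes of these steps rose against WT and 2 fell, with a median log2 fold change of 0.42, where 33.7% of all genes were higher and 38.2% lower. In HOE1, 2 rose and 6 fell (median -0.49). Between the lines, 7 of 8 were higher in HOE8 and none was lower (median 0.98). Summed over the 9 genes, the authors' FPKM, which divides by gene length and library total, were 194 ± 3.8 in HOE8, 77.8 ± 1.1 in HOE1 and 93.4 ± 0.44 in WT (SD, n = 3 each).

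The main HMG-CoA synthase gene, Manes.02G030900 on chromosome 2 (2318766 to 2323576), had 112.69, 101.98 and 103.94 CPM in HOE8, 22.1, 22.3 and 22.8 in HOE1, and 32.9, 31.7 and 32.8 in WT. The 3 groups did not overlap, with HOE8 highest and HOE1 lowest. The log2 fold change was 1.71 ± 0.06 (SE) in HOE8 (edgeR adjusted p = 3.6e-10) and -0.53 ± 0.06 in HOE1 (adjusted p = 1.2e-05), and HOE8 exceeded HOE1 by 2.24 ± 0.06 (adjusted p = 9.2e-11). The second copy, Manes.01G069000 on chromosome 1, fell in both lines, with 3.4, 3.64 and 3.96 CPM in HOE8, 2.4, 1.97 and 2.91 in HOE1, and 8.3, 8.73 and 8.57 in WT (log2 -1.22 in HOE8 and -1.81 in HOE1). The main copy held 97.6% of the family's FPKM in HOE8, 92.9% in HOE1 and 84.4% in WT.

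HMG-CoA reductase had 5 gene copies. Manes.02G116900 (chromosome 2, 8656817 to 8660886) had 161, 181 and 190 CPM in HOE8, 77.6, 81.8 and 82.3 in HOE1, and 55.4, 58.8 and 54.5 in WT. Manes.15G114100 (chromosome 15) had 53.8, 51.5 and 54 CPM in HOE8, 23.8, 23.3 and 23.5 in HOE1, and 18.7, 19 and 16.9 in WT. These copies rose in both lines and lay highest in HOE8, with no overlap between groups: the log2 fold change of Manes.02G116900 was 1.66 ± 0.07 in HOE8 and 0.52 ± 0.07 in HOE1 (edgeR adjusted p = 2.4e-09 and 5.1e-05), and that of Manes.15G114100 was 1.55 ± 0.06 and 0.37 ± 0.06 (adjusted p = 2.2e-09 and 3.9e-04).

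Manes.05G128600 (chromosome 5) took another course, with 45.9, 46.9 and 45.5 CPM in HOE8, 15.3, 14.3 and 14.3 in HOE1, and 33.9, 30.9 and 31.1 in WT. It rose in HOE8 (0.53 ± 0.06, edgeR adjusted p = 1.4e-05) and fell in HOE1 (-1.13 ± 0.06, adjusted p = 8.8e-08). Manes.03G096600 (chromosome 3) fell in both lines, by 0.53 in HOE8 and by 0.44 in HOE1 on the log2 scale, to 17.2, 16.7 and 19.4 CPM in HOE8 and 19.1, 18.4 and 18.9 in HOE1, against 23.3, 25.9 and 27.5 in WT. The fifth copy, Manes.01G157500, stayed below the filter with 13 reads in HOE8, 6 in HOE1 and 25 in WT. The makeup of the family thus differed between groups: Manes.02G116900 supplied 53.4% of its FPKM in HOE8, 51.6% in HOE1 and 35.7% in WT.

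Mevalonate kinase, which adds the first phosphate to mevalonate, was matched by 2 genes. Manes.09G165700 (chromosome 9) had 16.1, 16.9 and 13.8 CPM in HOE8, 8.19, 8.92 and 9.38 in HOE1, and 11.8, 13.6 and 12.4 in WT. HOE1 lay below both other groups (-0.51 ± 0.11 against WT, edgeR adjusted p = 0.0017). The rise in HOE8 (0.31 ± 0.10, adjusted p = 0.021) was lost without HOE8 library 2 (adjusted p = 0.08), WT library 1 (0.078) or WT library 3 (0.06). Manes.08G122300 had log2 fold changes of 0.00 in HOE8 and -0.47 in HOE1, the second with an adjusted p of 0.044 that became 0.12 with DESeq2. That call was also lost under other alternatives, among them no filter (edgeR adjusted p = 0.055) and without WT library 3 (0.21). Its call in HOE8 against HOE1 (0.47, edgeR adjusted p = 0.044) was likewise lost with DESeq2 (0.095) and under other alternatives.

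The remaining mevalonate steps have descriptions that the words do not catch, and 4 such genes were tested. Among all 12 tested genes of the route, 8 rose and 2 fell in HOE8, and 3 rose and 7 fell in HOE1, against WT. Ahead of it, acetyl-CoA acetyltransferase gene Manes.13G061200 had 37.9, 39.1 and 34.3 CPM in HOE8, 18.2, 20.7 and 19.6 in HOE1, and 15.4, 17.5 and 17.8 in WT. The HOE8 libraries lay above all others (log2 1.13 ± 0.09 against WT, edgeR adjusted p = 3.8e-07), while the HOE1 value of 0.21 had an adjusted p of 0.056 that dropped to 0.043 with DESeq2 size factors and 0.041 without HOE1 library 1.

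Members of gene families chosen as latex markers were measured beside them. Latex draws on mevalonate-derived precursors in rubber trees, but whether these genes act in cassava latex was not tested. The 5 genes of the rubber elongation factor family summed to 279 to 334 CPM in HOE8, 91.5 to 94.5 in HOE1 and 109 to 113 in WT, and 10 genes of the cis-prenyltransferase family to 190 to 207 in HOE8, 46.8 to 54.4 in HOE1 and 60.4 to 64 in WT. Single genes did not all follow the sums. Against WT, 2 of 5 rubber elongation factor genes rose and 3 fell in HOE8, and 1 rose and 3 fell in HOE1. Of 5 tested cis-prenyltransferase genes, 2 rose and 1 fell in HOE8, and none rose and 2 fell in HOE1. The gene of each family with the highest level in HOE8 was named after its values were seen. Rubber elongation factor gene Manes.13G012400 had 249, 218 and 212 CPM in HOE8, 14.4, 14.8 and 15.5 in HOE1, and 9.4, 8.99 and 8.92 in WT. Cis-prenyltransferase gene Manes.01G162100 had 169, 157 and 160 CPM in HOE8, 23.3, 18.2 and 23.1 in HOE1, and 20.3, 20.2 and 21.4 in WT. Its best match, AT5G58770, is described only as an undecaprenyl pyrophosphate synthetase family protein. Whether the values of the mevalonate genes and of these families have a common source was not tested.

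The MEP pathway opens with deoxyxylulose phosphate (DXP) synthase, regarded in Arabidopsis as a main control of flux into it. The members are the 5 genes matched to AT4G15560; another 2, matched to AT5G11380 and described as DXP synthase 3, are worded differently and were not caught. Of the 5, 1 rose and 3 fell in HOE8, and none rose and 2 fell in HOE1. The summed level of these 5 was nonetheless highest in HOE8, at 124 ± 12 FPKM, with 40.1 ± 0.99 in HOE1 and 53.8 ± 0.94 in WT (SD, n = 3 each). The copy behind this was Manes.15G018800 (chromosome 15, 1516569 to 1521175), with 292, 335 and 357 CPM in HOE8, 62.8, 61.1 and 66.7 in HOE1, and 62.1, 63.4 and 65.9 in WT. HOE1 and WT overlapped (-0.01 ± 0.07, edgeR adjusted p = 0.95) and HOE8 lay far above both (2.36 ± 0.08 against WT, adjusted p = 3.2e-10).

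The next 2 copies went the other way. Manes.14G161600 (chromosome 14) had 4.99, 5.27 and 2.86 CPM in HOE8, 22.2, 23.6 and 24.1 in HOE1, and 35.3, 35.5 and 34.1 in WT, which is log2 -3.00 ± 0.16 in HOE8 (edgeR adjusted p = 1.8e-08) and -0.58 ± 0.13 in HOE1 (adjusted p = 0.0026). Manes.06G028100 (chromosome 6) had 5.22, 6.51 and 6.45 CPM in HOE8, 15.5, 16.5 and 12.6 in HOE1, and 30.2, 32.9 and 29.2 in WT, or -2.34 ± 0.12 and -1.05 ± 0.11 (adjusted p = 1.9e-08 and 1.2e-05). In both, the groups were ordered HOE8, HOE1, WT from low to high without overlap. The copy Manes.15G018800 accordingly made up 95.2% of the FPKM of the 5 AT4G15560 matches in HOE8, 57.7% in HOE1 and 45.7% in WT. Over all 7 genes the sum was 158 ± 14 FPKM in HOE8, 84.6 ± 1 in HOE1 and 91.1 ± 0.72 in WT (SD, n = 3 each), and the share of Manes.15G018800 was 74.4% in HOE8, 27.3% in HOE1 and 27% in WT. Of the AT5G11380 matches, Manes.16G118600 had 29.1 FPKM in HOE8, 38 in HOE1 and 31.1 in WT, and Manes.03G017900 had 5.47 in HOE8, 6.5 in HOE1 and 6.2 in WT. Of the low copies, Manes.12G124300 did not pass in any comparison (log2 0.40 in HOE8 and 0.19 in HOE1), and the HOE8 value of Manes.13G101600 (-0.70, adjusted p = 0.043) became -0.57 with an adjusted p of 0.12 without HOE8 library 1. This call was also lost under other alternatives, among them DESeq2 (adjusted p = 0.076) and upper-quartile scaling (edgeR adjusted p = 0.058).

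**Figure D2:**
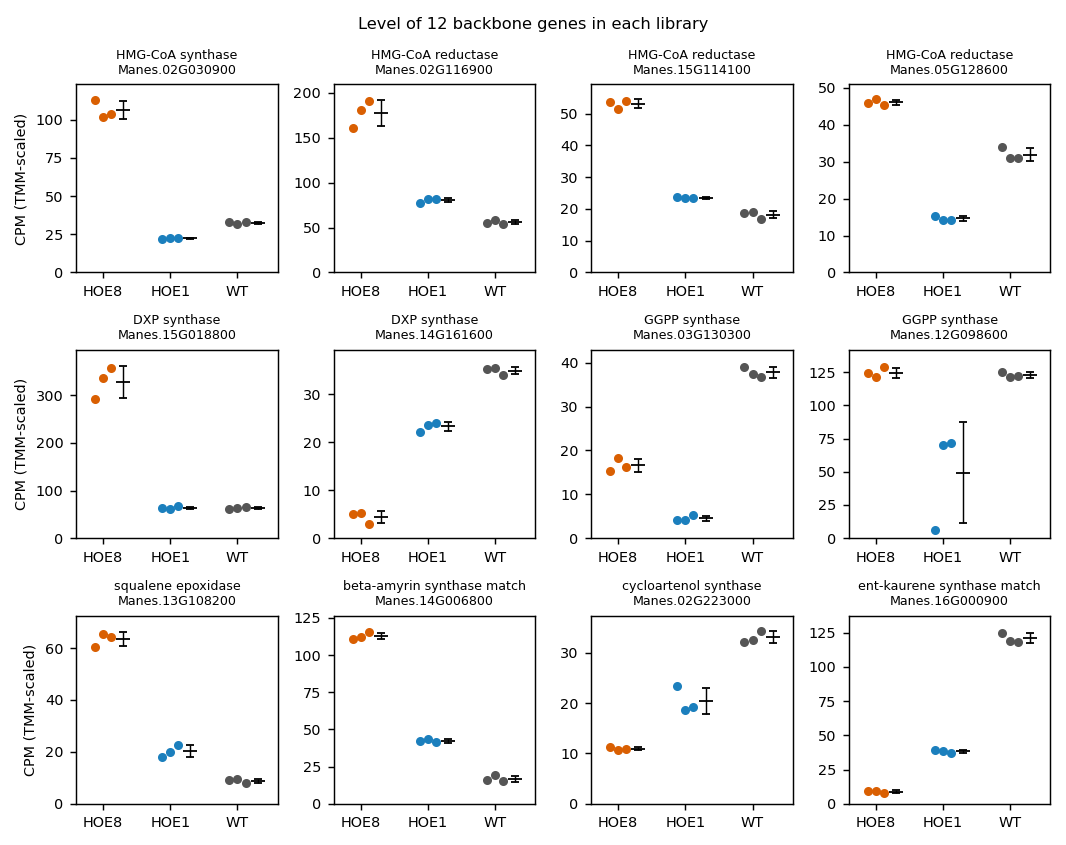
CPM (y axis, from 0) of 12 backbone genes in each HOE8, HOE1 and WT library, with the mean and SD of 3 libraries beside the points. HOE8 stands highest for HMG-CoA synthase, 3 reductases, DXP synthase Manes.15G018800, squalene epoxidase and the beta-amyrin synthase match, and lowest for DXP synthase Manes.14G161600, cycloartenol synthase and the ent-kaurene synthase match; a single HOE1 library lies low for Manes.12G098600.

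Isopentenyl diphosphate isomerase interconverts the pair of precursors, and 2 genes matched it. Manes.13G005300 (chromosome 13) had 141, 108 and 107 CPM in HOE8, 66.4, 61.6 and 67 in HOE1, and 84.3, 88.6 and 86.8 in WT. It rose in HOE8 (0.46 ± 0.09, edgeR adjusted p = 0.0012) and fell in HOE1 (-0.41 ± 0.10, adjusted p = 0.0029). Manes.12G005500 (chromosome 12) fell in both lines, to 51, 39.6 and 41.6 CPM in HOE8 and 58.5, 61.8 and 59.6 in HOE1, against 83.8, 84.4 and 78.5 in WT (log2 -0.90 and -0.46). The pair stood near an even share of FPKM in HOE1 and WT, where Manes.13G005300 held 49.1% and 48.4%, and moved to 70.5% in HOE8.

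Prenyl diphosphate synthases set the chain length that each branch receives. Of 10 genes, 2 rose and 4 fell in HOE8, and 3 rose and 4 fell in HOE1, against WT. The geranylgeranyl diphosphate (GGPP) synthases, which feed carotenoids, chlorophyll and gibberellins in the plastid, had no copy that rose in either line. Manes.03G130300 (chromosome 3, 22690535 to 22691479) had 15.4, 18.3 and 16.2 CPM in HOE8, 4.17, 4.13 and 5.17 in HOE1, and 39.1, 37.5 and 36.8 in WT. It was lowest in HOE1 (-3.07 ± 0.11, edgeR adjusted p = 1.9e-09) and intermediate in HOE8 (-1.18 ± 0.09, adjusted p = 5.5e-07).

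The copies Manes.01G117500 and Manes.02G076100 fell as well. The first had 5.14, 3.49 and 4.03 CPM in HOE8, 5.08, 4.2 and 4.46 in HOE1, and 13.4, 13.4 and 11 in WT (log2 -1.57 and -1.46). The second had 1.06, 0.62 and 1.1 CPM in HOE8, 2.4, 2.75 and 2.91 in HOE1, and 6.04, 5.89 and 5.34 in WT (log2 -2.62 and -1.09).

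The most abundant copy, Manes.12G098600 (chromosome 12, 19504527 to 19506486), had 124, 121 and 129 CPM in HOE8 and 125, 121 and 122 in WT, which overlapped. In HOE1 it had 5.86, 70.4 and 71.9 CPM, so that library 1, with 83 reads, lay far below libraries 2 and 3, with 1074 and 1112. With all libraries the HOE1 value was -1.31 ± 0.57 (edgeR adjusted p = 0.066). Without HOE1 library 1 it was -0.78 ± 0.06 (adjusted p = 2.8e-06), and HOE8 exceeded HOE1 by 0.80 ± 0.06 (adjusted p = 1.5e-06). Among 139 tested members and genes of the connected pathways, 2 had a library at least 4-fold from both others of its group, as did 268 of all 23434 genes tested.

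AT4G38460, described in the table as a geranylgeranyl reductase, encodes in Arabidopsis a small subunit that partners GGPP synthase. Its match Manes.11G098400 (chromosome 11) had 87, 72.4 and 73.4 CPM in HOE8, 40.5, 37.4 and 36.9 in HOE1, and 48.7, 45.4 and 42.6 in WT. It rose in HOE8 (0.77 ± 0.08, edgeR adjusted p = 7.3e-06). The lower HOE1 value (-0.25 ± 0.08, adjusted p = 0.021) was lost without HOE1 library 2 (0.066), HOE1 library 3 (0.075) or WT library 1 (0.082). The second match, Manes.15G071000, had 2 reads over the HOE8 libraries, 55 in HOE1 and 91 in WT, so that HOE8 was lower than WT by 38.4-fold, with a 95% exact counting interval of 10.3 to 322.

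Farnesyl diphosphate synthase supplies sterols, triterpenes and sesquiterpenes, and its 3 copies moved little. Manes.03G143700 rose in both lines, to 21.1, 15.5 and 17.2 CPM in HOE8 and 22.1, 20.5 and 19.1 in HOE1, against 13.9, 13.1 and 14 in WT (log2 0.39 and 0.59). Manes.08G076500 rose in HOE1 (0.41, edgeR adjusted p = 0.0088) and had a log2 fold change of -0.02 in HOE8. Manes.09G084500 had 0.24 in HOE1 (adjusted p = 0.026, or 0.1 without WT library 3, 0.093 without HOE1 library 1 and 0.06 without HOE1 library 2) and 0.19 in HOE8 (adjusted p = 0.062, or 0.046 with DESeq2). The geranyl diphosphate synthase match Manes.03G083900 did not pass in any comparison (0.02 in HOE8, -0.11 in HOE1).

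**Figure D3:**
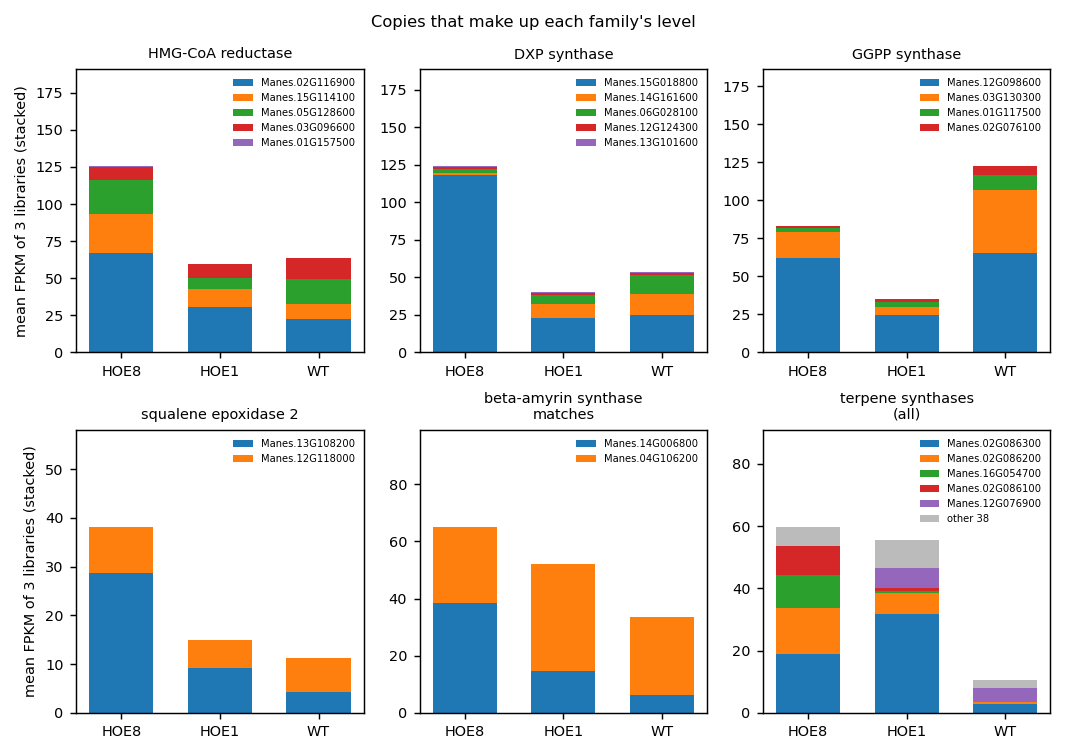
Mean FPKM of 3 libraries (y axis, from 0), stacked by gene copy, for 6 enzyme families in HOE8, HOE1 and WT. A single copy, Manes.15G018800, fills most of the DXP synthase column (the 5 AT4G15560 matches) in HOE8. The terpene synthase total is far higher in both lines than in WT. Manes.02G086300 is its largest copy in both lines (31.8% in HOE8 and 56.9% in HOE1), while the shares of other copies differ between the lines.

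Squalene synthase and squalene epoxidase commit farnesyl diphosphate to sterols and triterpenes. Of the 6 genes, 4 rose and 2 fell in HOE8, and 2 rose and 3 fell in HOE1, against WT. Their summed level was 125 ± 3 FPKM in HOE8, 91 ± 0.59 in HOE1 and 71.3 ± 4 in WT (SD, n = 3 each). Manes.11G092100 (chromosome 11, 14090454 to 14097219), the main squalene synthase, had 107, 105 and 107 CPM in HOE8, 93.3, 96.7 and 91.1 in HOE1, and 52.9, 53.3 and 61.4 in WT. Both lines lay above WT (log2 0.93 ± 0.06 in HOE8 and 0.75 ± 0.06 in HOE1, edgeR adjusted p = 1.7e-07 and 1.9e-06).

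Its neighbour Manes.11G092200, a shorter copy on the same stretch, rose in HOE8 (0.91 ± 0.14, edgeR adjusted p = 1.3e-04) and had 0.28 in HOE1 (adjusted p = 0.11, or 0.048 without HOE8 library 1). Reads may have been shared between these neighbours. Manes.04G084600, another squalene synthase copy, fell in both lines (-1.05 and -0.49), with 10.6, 9.85 and 11.9 CPM in HOE8, 16.9, 14.3 and 16.5 in HOE1, and 21.4, 22.8 and 22.6 in WT.

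Squalene epoxidase Manes.13G108200 (chromosome 13, 23288393 to 23292222) had 60.3, 65.5 and 64.3 CPM in HOE8, 18, 20.1 and 22.5 in HOE1, and 8.99, 9.51 and 7.81 in WT. It rose in both lines without overlap, by 2.85 ± 0.10 in HOE8 and 1.21 ± 0.10 in HOE1 on the log2 scale (edgeR adjusted p = 5.6e-10 and 1.6e-06). Its sister Manes.12G118000 rose in HOE8 (0.53 ± 0.09, adjusted p = 2.5e-04) and had -0.23 in HOE1 (adjusted p = 0.047), a call lost under 12 of 15 alternatives. The share of Manes.13G108200 in the pair's FPKM was 75% in HOE8, 61.7% in HOE1 and 37.5% in WT. The low copy Manes.07G049600, matched to squalene epoxidase 3, fell in both lines (-1.26 and -1.20).

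Oxidosqualene cyclases fold the product into sterols, through cycloartenol, or into triterpenes such as beta-amyrin, a precursor of leaf waxes and saponins. The matches to the Arabidopsis beta-amyrin synthase gene AT1G78950 and to cycloartenol synthase diverged. Manes.14G006800 (chromosome 14, 708275 to 714603), an AT1G78950 match, had 111, 112 and 115 CPM in HOE8, 42, 43.7 and 41.3 in HOE1, and 15.9, 19.1 and 15.4 in WT. It rose by 2.75 ± 0.08 in HOE8 and 1.33 ± 0.08 in HOE1 (edgeR adjusted p = 1.3e-10 and 1.0e-07), with no overlap between the 3 groups.

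The other AT1G78950 match, Manes.04G106200 (chromosome 4), had 79, 85.9 and 89.3 CPM in HOE8, 115, 120 and 120 in HOE1, and 83.1, 84.2 and 78.9 in WT. It rose in HOE1 (0.53 ± 0.06, edgeR adjusted p = 1.4e-05), while HOE8 overlapped WT (0.05 ± 0.06, adjusted p = 0.49). Cycloartenol synthase Manes.02G223000 (chromosome 2, 31128052 to 31148911) fell in both lines, to 11.3, 10.7 and 10.9 CPM in HOE8 and 23.4, 18.6 and 19.3 in HOE1, against 32.2, 32.5 and 34.4 in WT (-1.59 ± 0.10 and -0.69 ± 0.09, adjusted p = 5.3e-08 and 5.0e-05). A second cycloartenol synthase copy, Manes.02G227300, had no read in any library.

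The diterpene synthases of gibberellin synthesis make ent-copalyl diphosphate and then ent-kaurene, the first dedicated intermediates of this growth hormone. The annotation gives 10 members, 8 matched to ent-kaurene synthase (AT1G79460) and 2 to ent-copalyl diphosphate synthase (AT4G02780). In HOE8, 7 of the 8 tested fell against WT and none rose (median log2 -1.77). In HOE1, 4 fell and 2 rose (median -0.43). Of all genes tested, 38.2% were lower in HOE8 and 32.7% in HOE1. A gene that is low in HOE8 can pass the filter through HOE1 and WT, so these counts describe the tested genes and support nothing. The summed level was 13.4 ± 1.1 FPKM in HOE8, 35.6 ± 0.92 in HOE1 and 85 ± 1.5 in WT (SD, n = 3 each).

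Manes.16G000900 (chromosome 16, 251573 to 256537), the most abundant ent-kaurene synthase match, had 9.38, 9.62 and 7.7 CPM in HOE8, 39.1, 38.4 and 37.1 in HOE1, and 125, 119 and 118 in WT. The groups were far apart and did not overlap: -3.76 ± 0.08 in HOE8 and -1.66 ± 0.07 in HOE1 (edgeR adjusted p = 1.5e-11 and 9.4e-09). Manes.S051300, on a scaffold outside the chromosomes, had 0.151, 0.698 and 0.293 CPM in HOE8, 17.3, 16.6 and 16.4 in HOE1, and 32.2, 29.3 and 34.2 in WT. It was close to lost in HOE8 (-6.37 ± 0.22, adjusted p = 6.3e-10, from 15 reads over the group; -7.10 without HOE8 library 2) and moderately lower in HOE1 (-0.93 ± 0.13, adjusted p = 1.0e-04).

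Manes.07G100100 (chromosome 7) fell in both lines, to 11.6, 15 and 14 CPM in HOE8 and 15.1, 13.6 and 13.6 in HOE1, against 29.4, 33.3 and 33.8 in WT. The log2 fold changes were -1.25 and -1.19, and HOE8 against HOE1 gave -0.06 ± 0.11 (edgeR adjusted p = 0.63). Manes.16G065800 had no read in HOE8, 37 in HOE1 and 32 in WT, so that HOE8 was at least 9.01-fold lower than WT and at least 10.9-fold lower than HOE1, taking 3 reads over the group as the floor. Whether these matches make ent-kaurene in cassava is not known from the files, since related diterpene synthases share the fold.

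Terpene synthases proper, enzymes that mainly make monoterpenes and sesquiterpenes, were the largest class, with 43 members. Of these, 14 had no read in any library, 18 had reads but fell below the filter, and 11 were tested. A terpene synthase that passes the filter only through the group where it is high had to differ, so counts over the 11 describe them and support nothing: against WT, HOE8 had 6 higher and 3 lower and HOE1 had 9 higher and 1 lower. The summed level of the 43 genes was 59.7 ± 2 FPKM in HOE8, 55.6 ± 0.97 in HOE1 and 10.5 ± 0.26 in WT (SD, n = 3 each), so that both lines exceeded every WT library. FPKM gives short gene models more weight than CPM does. The short models Manes.02G086200 and Manes.02G086100 gave 24.7% and 15.3% of the sum in HOE8, and 12.5% and 1.89% in HOE1. The order of HOE8 and HOE1 in this sum is therefore uncertain.

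With neighbours joined at up to 100 kb, the members formed 15 runs that held 43 genes, 37 of them terpene synthases. The best match of 21 terpene synthases was TPS21 (AT5G23960), which in Arabidopsis flowers makes the sesquiterpene caryophyllene. A run of 6 genes on chromosome 12 (30523140 to 30736277) had no read in any library.

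Among the runs of terpene synthases, the one with the highest summed FPKM, a mean of 28.8 over the 9 libraries, lay on chromosome 2, where 4 genes stood within 11319 bp (6511191 to 6522509). Manes.02G086300, a TPS21 match, had 36.1, 36.4 and 36.5 CPM in HOE8, 61.3, 59.5 and 58.4 in HOE1, and 4.39, 6.08 and 5.34 in WT. It rose in both lines and most in HOE1: 2.78 ± 0.09 in HOE8 and 3.50 ± 0.09 in HOE1 (edgeR adjusted p = 4.8e-10 and 3.9e-10), and HOE8 was lower than HOE1 (-0.72 ± 0.08, adjusted p = 1.3e-05). It made up 31.8% of the terpene synthase FPKM in HOE8, 56.9% in HOE1 and 28.1% in WT.

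The short gene models beside it were higher in HOE8 than in HOE1. Manes.02G086200 had 7.71, 7.13 and 6.38 CPM in HOE8, 2.47, 3.48 and 3.94 in HOE1, and 0.274, 0 and 0.411 in WT, which is 4.87 ± 0.40 in HOE8 (5.64 without WT library 3) and 3.78 ± 0.44 in HOE1 (4.55 without it). Manes.02G086100 had 243 reads in HOE8, 31 in HOE1 and 2 in WT, or 144-fold more than WT in HOE8 (95% exact counting interval 39.4 to 1195) and 16.3-fold more in HOE1 (4.14 to 140). At 690 and 945 bp, these models are short for a terpene synthase and may be pieces of a gene or share reads with Manes.02G086300, so their separate values are uncertain. The fourth model, Manes.02G086400, had 1 read in HOE8, 3 in HOE1 and 1 in WT.

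On chromosome 16, a pair of TPS21 matches had reads in the lines and none in WT. Manes.16G054700 (13246493 to 13253051) had 16.6, 19.7 and 18 CPM in HOE8, 0.847, 0.59 and 1.03 in HOE1, and 0 in each WT library. It was at least 283-fold higher than WT in HOE8 and at least 12.9-fold higher in HOE1, and HOE8 exceeded HOE1 by 4.44 ± 0.19 (edgeR adjusted p = 4.9e-08). Manes.16G057600 (16818233 to 16824943) had 120 reads in HOE8, 10 in HOE1 and 0 in WT, at least 47.4-fold and at least 3.5-fold above WT. Its HOE1 call (adjusted p = 0.026) was lost without HOE1 library 1 (0.075) or WT library 3 (0.055), while HOE8 exceeded HOE1 by 3.71 ± 0.49 (4.83 without HOE1 library 1).

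Another set was higher in HOE1 than in WT and nearly silent in HOE8. Manes.16G016300 (chromosome 16, 1614385 to 1617078), matched to TPS14, a linalool synthase in Arabidopsis, had 0.151, 0.233 and 0.0734 CPM in HOE8, 6.78, 6.95 and 6.85 in HOE1, and 0.686, 0.97 and 1.06 in WT. It fell in HOE8 (-2.53 ± 0.39, edgeR adjusted p = 1.2e-04) and rose in HOE1 (2.90 ± 0.19, adjusted p = 2.1e-07), and the lines differed by -5.43 ± 0.27 (adjusted p = 1.6e-08). Manes.12G076900 (chromosome 12, 8198551 to 8201391), matched to TPS02, had 0.605, 0.31 and 0.22 CPM in HOE8, 12, 11.3 and 12.1 in HOE1, and 8.57, 6.86 and 7.28 in WT. This gene, the largest part of the WT terpene synthase level at 41.6% of its FPKM, fell by 4.29 ± 0.24 on the log2 scale in HOE8 and rose by 0.64 ± 0.14 in HOE1 (adjusted p = 2.7e-08 and 0.0019).

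Manes.12G066700, matched to a cineole synthase, had 2 reads in HOE8, 79 in HOE1 and 35 in WT. HOE8 was lower than WT by 14.8-fold (95% exact counting interval 3.8 to 127) and lower than HOE1 by 35-fold (9.37 to 294). The HOE1 value of 1.23 ± 0.38 (edgeR adjusted p = 0.015) was lost without WT library 2 (0.062) or WT library 3 (0.06). The 294 bp model Manes.18G102000, also among the 6 highest by mean FPKM, was below the filter with 15 reads in HOE8, 39 in HOE1 and 7 in WT.

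On chromosome 8 (30409577 to 30420066), a run of 3 TPS21 matches had reads in HOE8 and none in HOE1 or WT. Manes.08G138400 had 3 reads, Manes.08G138500 28 and Manes.08G138600 20, all in HOE8 and all below the filter. The last 2 were at least 11.1-fold and at least 7.89-fold above WT. These genes were chosen after their values were seen.

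**Figure D4:**
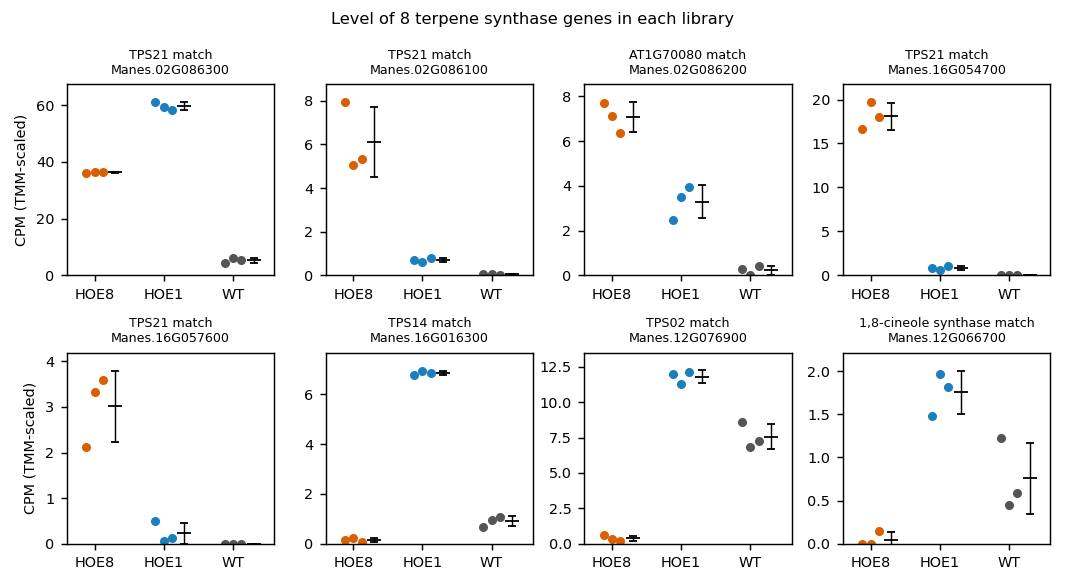
CPM (y axis, from 0) of 8 terpene synthase genes in each HOE8, HOE1 and WT library, with the mean and SD of 3 libraries beside the points. Both lines exceed WT for Manes.02G086300, Manes.02G086100, Manes.02G086200 and Manes.16G054700, whereas HOE8 is close to 0 and HOE1 highest for Manes.16G016300, Manes.12G076900 and Manes.12G066700.

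The 6 protein prenylation genes changed by less. In HOE8, 2 rose and 2 fell against WT, and in HOE1, 2 rose and 1 fell, all by less than 2-fold. Manes.04G060700, a subunit of the enzyme that prenylates Rab proteins, had 63.1, 59.1 and 62.7 CPM in HOE8, 69.1, 71 and 69.5 in HOE1, and 42.9, 39.7 and 40.8 in WT. Both lines lay above WT (0.58 and 0.76). Manes.04G076000, described as a farnesylated protein and the most abundant member by FPKM, fell in HOE8 to 110, 91.6 and 86 CPM, with 150, 153 and 147 in HOE1 and 152, 152 and 147 in WT (-0.65 ± 0.08 in HOE8, edgeR adjusted p = 2.6e-05; 0.00 in HOE1). Manes.09G056500, a protease that trims prenylated proteins, rose in HOE1 (0.73) and had 0.09 in HOE8. Of the 3 other genes, Manes.02G035200 fell in both lines (-1.42 and -0.95). The galactokinase family genes moved by at most 0.28 on the log2 scale.

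Around the members stand pathways that share their precursors, taken as lists by Arabidopsis match. Of 18 MEP genes, which include all 7 genes described as DXP synthases, 3 rose and 11 fell in HOE8 (median log2 -0.24), and 5 rose and 6 fell in HOE1 (median 0.00). Manes.01G176400, a kinase in the middle of the route, fell in both lines to 34, 29.4 and 31.5 CPM in HOE8 and 35.5, 30.6 and 31.9 in HOE1, against 64.5, 69.2 and 66.2 in WT (-1.07 and -1.03). The last enzyme of the route, which releases both precursors, had 2 copies, named after their values were seen. Manes.17G098700 had 262, 251 and 241 CPM in HOE8, 175, 179 and 179 in HOE1, and 99.7, 104 and 107 in WT (1.28 and 0.77), while Manes.15G147700 had 65, 56 and 62.7 in HOE8, 139, 133 and 137 in HOE1, and 157, 151 and 166 in WT (-1.37 in HOE8; -0.21 in HOE1, adjusted p = 0.011, or 0.05 without WT library 3). The copies thus moved in opposite directions in HOE8, as the DXP synthase copies did.

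Carotenoid synthesis, which starts from GGPP, had 18 tested genes, of which 8 rose and 6 fell in HOE8 and 10 rose and 5 fell in HOE1. The matches to carotene beta-hydroxylase AT4G25700, which makes xanthophylls, differed in direction in HOE8. Manes.02G018300 had 2.04, 1.32 and 1.32 CPM in HOE8, 28.7, 29.8 and 26.7 in HOE1, and 87.7, 92.6 and 84.1 in WT. Manes.06G152200 had 10.8, 9.69 and 9.54 CPM in HOE8, 30, 27.3 and 27.4 in HOE1, and 148, 134 and 140 in WT.

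Both fell in both lines without overlap, with log2 fold changes of -5.81 in HOE8 and -1.63 in HOE1 for Manes.02G018300 and of -3.81 in HOE8 and -2.32 in HOE1 for Manes.06G152200. Manes.14G022700 had 42.2, 40.3 and 42.9 CPM in HOE8, 0.424, 0.0656 and 0.776 in HOE1, and 0.137, 0 and 0.411 in WT. It rose in HOE8 (7.71 ± 0.40, edgeR adjusted p = 1.5e-08; 9.11 without WT library 3), while HOE1 and WT overlapped (1.12, adjusted p = 0.24). Phytoene synthase, the first step of the branch, was highest in HOE8 for Manes.01G124200, a gene named after its values were seen, with 291, 282 and 268 CPM in HOE8, 45.2, 48.4 and 45.6 in HOE1, and 36.7, 35.8 and 36.1 in WT (2.95 and 0.36).

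Of 12 genes for tocopherol, plastoquinone and the chlorophyll side chain, 5 rose and 5 fell in HOE8, and 4 rose and 5 fell in HOE1. The methyltransferase match Manes.15G033900 (AT3G63410) had 215, 168 and 189 CPM in HOE8, 39.9, 30.5 and 43.1 in HOE1, and 33.2, 33.6 and 34.5 in WT. HOE8 lay above all other libraries (2.50 ± 0.12), and HOE1 overlapped WT (0.16, edgeR adjusted p = 0.26, or 0.30 and 0.024 without HOE1 library 2). A second match, Manes.01G203300, followed the same order, with 204, 190 and 178 CPM in HOE8, 66.5, 60.4 and 61.6 in HOE1, and 59.5, 59.8 and 61.1 in WT (1.66 in HOE8). Manes.02G088900, matched to the dioxygenase that makes homogentisate, the head group of these molecules, fell in both lines to 166, 166 and 151 CPM in HOE8 and 198, 199 and 208 in HOE1, against 413, 438 and 395 in WT (-1.37 and -1.04).

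Of 22 tested genes of sterol synthesis after cyclization, 10 rose and 8 fell in HOE8, and 3 rose and 9 fell in HOE1. Between the lines, 12 were higher in HOE8 and 5 lower, with a median of 0.37. Manes.02G132100, matched to the cytochrome P450 that makes stigmasterol, fell to 4.46, 3.49 and 3.52 CPM in HOE8 and 15.4, 16.5 and 17.1 in HOE1, against 45.9, 42.2 and 39.1 in WT (-3.47 and -1.37). Manes.05G142300, a sterol methyltransferase, had 41, 45.1 and 40.4 CPM in HOE8, 26.6, 25.8 and 27.5 in HOE1, and 71, 72.9 and 62.9 in WT (-0.71 and -1.37). For its sister Manes.18G009200, HOE8 library 1 had 3.25 CPM and libraries 2 and 3 had 26.4 and 26.3, with 3.39, 3.41 and 4.2 in HOE1 and 3.7, 4.59 and 6.4 in WT. HOE8 and WT therefore overlapped, and the log2 fold change was 1.92 ± 0.56 with all libraries (edgeR adjusted p = 0.0098) and 2.42 ± 0.18 without HOE8 library 1 (adjusted p = 4.2e-07).

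In early gibberellin synthesis, the list holds the 10 diterpene synthases and 4 genes of the oxidations that follow. Of 11 tested, 3 rose and 7 fell in HOE8, and 2 rose and 4 fell in HOE1. The 3 that rose in HOE8 were the tested oxidation genes, none of which passed in HOE1. Carotenoid cleavage had 2 tested genes of 8, which both rose in HOE8 (0.74 for Manes.10G141300 and 1.02 for Manes.15G183500). In HOE1 they had 0.11 and 0.58, the second with an adjusted p of 0.028 that became 0.088 with DESeq2.

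**Figure D5:**
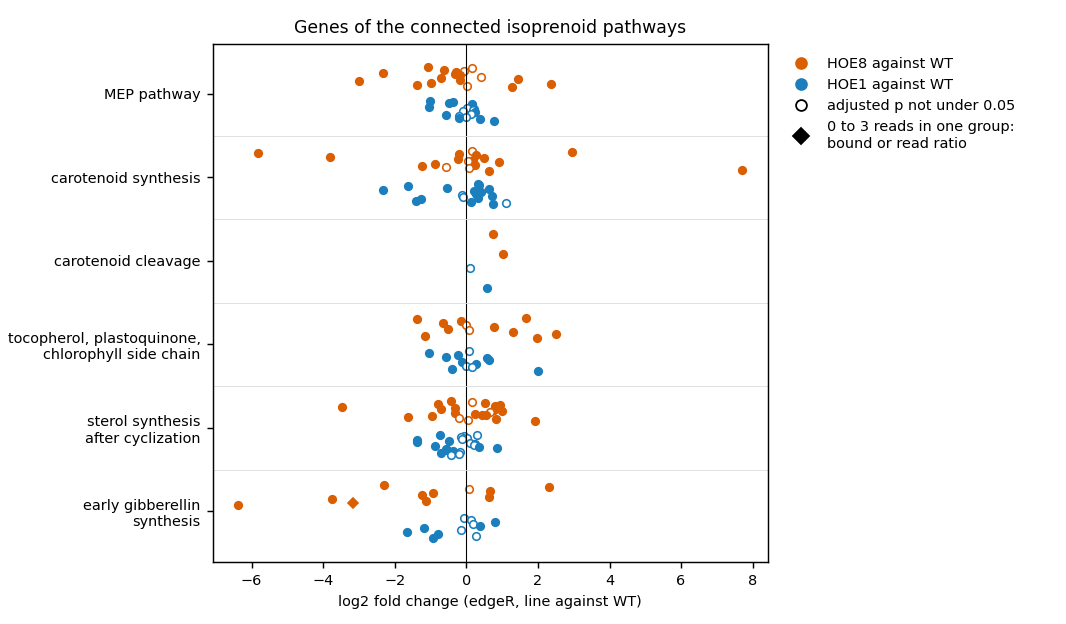
Log2 fold change (x axis) in HOE8 and in HOE1 against WT of the tested genes of 6 connected pathway lists; filled points passed an adjusted p of 0.05. Points lie on both sides of 0 in most rows, and carotenoid synthesis in HOE8 spans -5.81 to 7.71.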

How the data were processed

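The authors deposited 1 table for the whole series. It lists whole-number read counts and FPKM values by gene and library, and each gene's best Arabidopsis match with its description. Per the submitters' processing notes, the tools included HISAT2 2.0.4 and StringTie 1.3.0. The genome build, the counting settings and the handling of strand were not given in the sources used here, so near-identical or overlapping genes may share reads (2 members overlap another gene). Coordinates are those of the file. Tests on the deposited counts used edgeR 4.0.16 under R 4.3.3, with limma 3.58.1 loaded: filter at a minimum count of 10 (23434 genes kept, 9599 below it), TMM, 1 quasi-likelihood fit of all 9 libraries, two-sided tests, threshold 0.05. Standard errors were obtained by dividing each log2 fold change by the square root of its F statistic. FPKM, deposited by the authors, was used for levels between genes, and for class sums, shares and some single genes in each group. It was not TMM-scaled. The TMM factors were 0.973 to 0.974 in HOE8, 0.985 to 0.986 in HOE1 and 1.040 to 1.048 in WT. Small differences between groups in FPKM can therefore differ from those in CPM. With 0 reads in a group, folds are bounds against 3 reads over the group; with 1 to 3 reads, ratios carry a 95% exact interval, covering counting error only. DESeq2 1.42.0, other scalings, no filter, left-out libraries and a replicate block were alternatives. On simulated HOE1 and WT counts of 23093 genes, 42 of 67 planted 1.5-fold changes were called. So were 64 of 67 2-fold and 66 of 66 4-fold changes, with 12 false calls. Changes were planted only in genes above a set mean read count. Recovery was therefore not tested for genes with few reads, such as most terpene synthases. It was also not tested with most genes changed, whereas 64.4% of all genes were called in HOE1 against WT in the data.

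Members, classes and pathway lists were chosen with earlier results of these data known. Named were all members of the small backbone classes; among terpene synthases and among triterpene cyclases, the 6 highest by mean FPKM and the largest changes per comparison, 3 in each direction; and the 2 largest called changes per comparison in every other class or list. Fewer were printed than this rule allows, and exceptions are stated.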

Additional observations from a re-analysis of the deposited data

Results flagged for a closer look

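Of the named members, 9 were called in opposite directions in the lines, with a called difference between HOE8 and HOE1 (edgeR, adjusted p under 0.05). Against WT, 71.9% of all genes tested were called in HOE8 and 64.4% in HOE1. How many of all genes were called in opposite directions was not counted. Some members were named for large changes in these data, so the count describes the named members only. Higher in HOE8 and lower in HOE1 than in WT were HMG-CoA synthase Manes.02G030900 (log2 HOE8 minus HOE1 2.24), HMG-CoA reductase Manes.05G128600 (1.66), mevalonate kinase Manes.09G165700 (0.82), the small-subunit match Manes.11G098400 (1.02), squalene epoxidase Manes.12G118000 (0.76) and isopentenyl diphosphate isomerase Manes.13G005300 (0.87). Lower in HOE8 and higher in HOE1 were the terpene synthases Manes.16G016300 (-5.43), Manes.12G076900 (-4.94) and Manes.12G066700 (-4.91, a value that depends on the prior count because HOE8 had 2 reads). For Manes.09G165700, Manes.11G098400, Manes.12G118000 and Manes.12G066700, the call against WT in 1 of the lines was lost under some alternatives.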

How the results depend on the processing

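The 12 counts of members called in a direction stayed within 1.5 times their value under every alternative run. With each library left out in turn, HOE8 against WT gave 22 to 24 higher and 26 to 27 lower (12 to 13 and 20 to 21 at 2-fold), HOE1 against WT 20 to 25 and 22 to 25 (9 to 11 and 9 to 11), and HOE8 against HOE1 21 to 24 and 24 to 27 (14 to 15 and 12 to 14). Of 3188 log2 fold changes of 71 named genes under 15 alternatives, 3099 kept direction and call, 64 lost the call, 25 gained it and none reversed; 24 of 213 gene results changed at least once. Other scalings shifted the median of all genes by -0.023 to 0.073. Fitted values of genes with few reads moved most, such as Manes.12G066700 in HOE8 (-3.68, or -6.48 without HOE8 library 3) and Manes.15G071000 in HOE8 (-5.05, or -7.85 without HOE8 library 1); the cause was not tested. Same-numbered libraries did not deviate together (correlations -0.04 to 0.03; 1 library correlated best with its own number in both other groups), so the numbers did not pair them. A fit with a replicate block gave 24 higher and 27 lower in HOE8 against WT (12 and 20 at 2-fold), 21 and 24 in HOE1 against WT (9 and 10) and 24 and 26 in HOE8 against HOE1 (16 and 12). Depth limits the terpene synthases, of which 18 had reads below the filter.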
